A study of Homo sapiens with 24 samples.

Results

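The comparison was between RWPE1 cells given 100 nM 1,25(OH)2D for 24 h and RWPE1 cells given its vehicle, ethanol, for 24 h. Samples were taken by their titles, 4 treated and 4 vehicle, which makes 8 of the 24 arrays of the series. RWPE1 is an immortalized human prostate epithelial cell line that does not form tumors, and every sample came from this 1 line, grown in serum-free keratinocyte medium with added growth factors. The other 16 arrays hold both treatments at 6 and 48 h, 4 arrays in each group, and the medium was renewed once in the 48 h cultures. RNA of each sample was measured on a whole-genome Affymetrix array, and all values below are gcRMA expression values on the log2 scale, where a difference of 1 is 2-fold. The titles call the 4 samples of a group biological replicates. If their flasks were not independent cultures, the p-values speak only of the spread among these samples.

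1,25(OH)2D is the active hormone made from vitamin D. It binds the vitamin D receptor, a nuclear receptor that acts with the retinoid X receptor at response elements in its target genes. One of the best known targets is CYP24A1, the enzyme that breaks the hormone down. In prostate epithelium the hormone is known for slowing growth and for favouring differentiation, and basal epithelial cells express the receptor.

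At 24 h the changes that all 4 treated arrays shared included those of CYP24A1, 68.4-fold higher (SE of the log2 change 0.42, n = 4 per group), the lipopolysaccharide co-receptor CD14, 27.0-fold higher (SE 0.19), and the steroid-reducing enzyme AKR1C2, 14.2-fold higher (SE 0.26). The chemokine CXCL14 was 6.21-fold lower (SE 0.22). The sizes for genes near the bottom of the scale depended on an offset of 32 added to the linear values, which made the change of CYP24A1 21.96-fold and that of CD14 6.77-fold but left AKR1C2 at 12.1-fold and CXCL14 at 6.01-fold. There were 114 shared rises and 78 shared falls among the 26036 probe sets tested. Another 3098 changes of at least 1.5-fold were in probe sets whose within-group variation went largely with the common spread of the arrays. Members of the vitamin D, aldo-keto reductase, squamous and matrix lists were called by limma, while the mitosis and interferon lists held 0 called genes, with 8 of 40 and 19 of 42 lower at an unadjusted p under 0.05, against 4.58% of all genes.

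The 8 arrays did not spread evenly. To measure the spread without using the 24 h arrays, each group's mean was subtracted from the 16 arrays of 6 and 48 h and the leading principal component of what was left was taken, which held 63.6% of the variance. An array's position on this axis is the mean over probe sets of its deviation times the probe set's loading, on the log2 scale, and the loadings have a root mean square of 1. Among the 24 h arrays, relative to their mean, vehicle replicates 1, 2, 3 and 4 lay at -0.246, 0.355, 0.206 and 0.280. Treated replicates 1, 2, 3 and 4 lay at 0.281, -0.188, 0.012 and -0.700. The groups overlapped: treated replicate 1 lay among the vehicle arrays, vehicle replicate 1 lay among the treated arrays, and treated replicate 4 was the lowest of all. Vehicle had a mean position of 0.148 ± 0.270 and the treated arrays one of -0.148 ± 0.415 (SD, n = 4 each), a difference of -0.297 (exact permutation test, two-sided, p = 0.314, where 4 against 4 allows no p below 0.0286). At 48 h the same SDs of position were 0.028 in vehicle and 0.0916 with 1,25(OH)2D. A component taken from the 24 h arrays alone held 86.6% of their within-group variance, and its loadings correlated with those of the other 16 arrays at r = 0.849 across probe sets, which are not independent replicates.

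**Figure D1:**
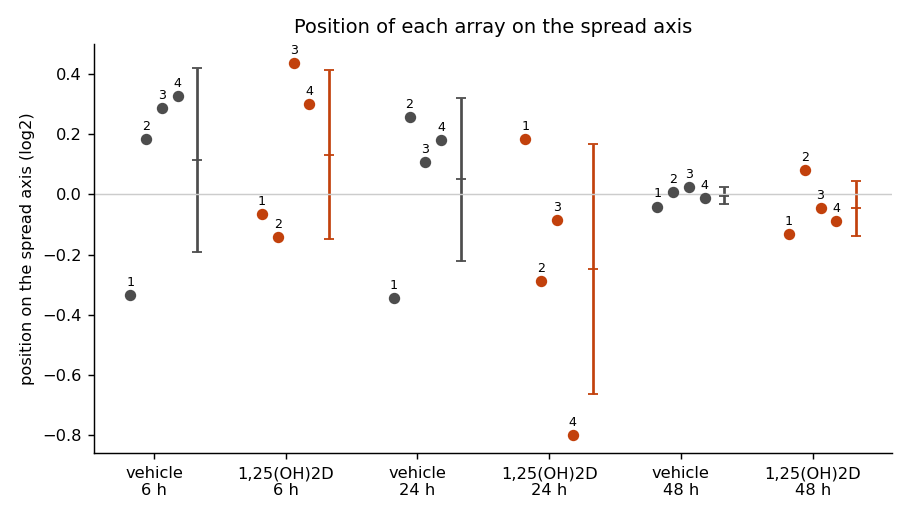
Where the 24 arrays lay along the spread axis (log2, relative to the mean of all 24 arrays), with replicate numbers, for vehicle (grey) and 1,25(OH)2D (orange) at 6, 24 and 48 h; the bars give the mean and 1 SD (n = 4). Treated replicate 4 of 24 h lies lowest, at -0.798, and the 48 h arrays lie closest together.

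Treated replicate 4 held 40.8% of the within-group sum of squares of the 8 arrays, treated replicate 1 held 23.5% and vehicle replicate 1 held 18.2%. The number of probe sets at least 1.5-fold from the vehicle mean differed as well, with 4626 above and 7268 below in treated replicate 4 but 680 above and 1183 below in treated replicate 3. Across probe sets the treated arrays' change went with the loading in opposite directions, at r = 0.396 in treated replicate 1 and r = -0.814 in treated replicate 4. The mean change at 24 h correlated with the loading at r = -0.721, against 0.0491 at 6 h and -0.121 at 48 h.

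Of the 26036 probe sets tested, limma called 92 at an adjusted p (Benjamini-Hochberg) under 0.05, or 0.353%. Of these, 62 rose (0.238% of those tested) and 30 fell (0.115%), and with an offset of 32 on the linear scale there were 73 rises and 57 falls. Without regard to any test, all 4 treated arrays lay above all 4 vehicle arrays for 709 probe sets (2.72%) and below them for 640 (2.46%). Leaving out a vehicle array turned the 92 into 61 (replicate 1), 26 (replicate 2), 34 (replicate 3) or 28 (replicate 4), and leaving out a treated array into 31 (replicate 2) or 41 (replicate 3). It was 109 without treated replicate 1 and 101 without treated replicate 4. Without the 3 arrays farthest from their group's mean position, vehicle replicate 1 and treated replicates 1 and 4, it was 5491, all 92 among them, but the 5 arrays left did not overlap in position (0.0728 to 0.222 in vehicle, -0.320 and -0.121 with 1,25(OH)2D) and the change still went with the loading (r = -0.768). Centring each array on its median added 0.167 to every change at 24 h and left 49 calls.

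The changes were then sorted by a description that uses no test. A change is named shared where each treated array lay beyond every vehicle array and at least 1.5-fold from the vehicle mean. This gave the 114 rises and 78 falls. A change is named spread-following where its mean was at least 1.5-fold, it was not shared, and the arrays' position accounted for a share of 0.5 or more of its within-group sum of squares. The rule does not ask whether the mean change has the direction that the positions would give. There were 471 such rises and 2627 such falls, 3098 in all. Another 63 rises and 130 falls of 1.5-fold belonged to neither class. The calls were mostly among the shared changes, with 54 of 114 shared rises and 25 of 78 shared falls called, against 4 of 3098 spread-following changes. Since the same values set the class and the call, these counts are only a description. At the edge of the shared class, TCEA2 and FXYD3 were inside, with a smallest treated change of 0.59 each, and SERPINE2 and ZNF185 were outside, at 0.58 each. On the side of the falls RHOB was inside at -0.60 and PLK2 outside at -0.58. The shared classes grew to 311 rises and 303 falls without treated replicate 1, and the shared falls numbered 161 without vehicle replicate 1 and 119 without treated replicate 4. The spread-following changes numbered 528 without treated replicate 4, 5127 without treated replicate 1 and 5071 without vehicle replicate 1.

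**Figure D2:**
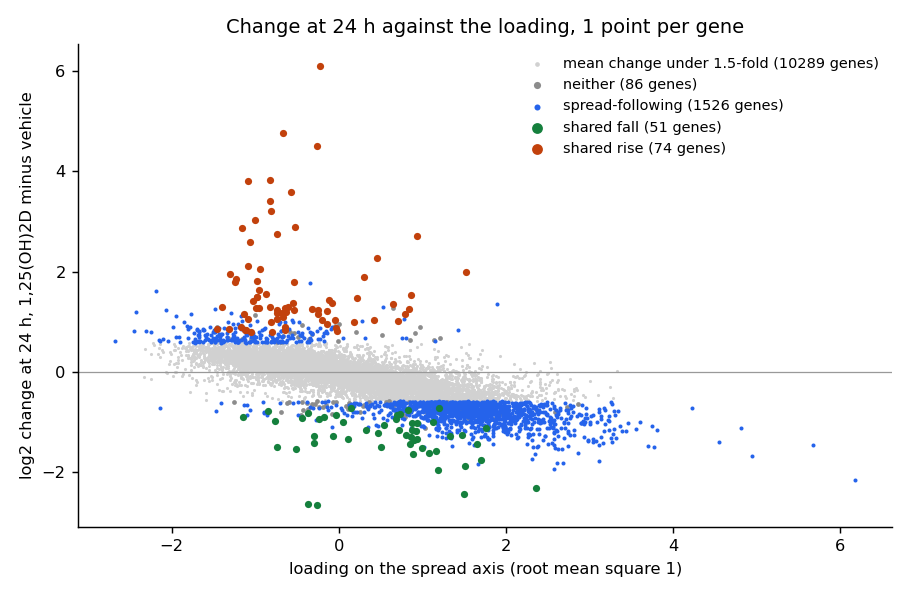
Mean change at 24 h (log2, 1,25(OH)2D minus vehicle) against the loading on the spread axis, 1 point per gene for 12026 genes. Spread-following genes (1526, blue) lie mostly along the falling diagonal. Shared rises (74, orange) and shared falls (51, green) lie above and below it at loadings of both signs.

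The shared rises were led by CYP24A1. Its 4 vehicle arrays read 3.68, 3.51, 3.75 and 4.51, and its treated arrays 10.91, 9.99, 10.03 and 8.90. The groups lay far apart, the lowest treated array being replicate 4, and the log2 change was 6.10 (SE 0.42, adjusted p = 0.00222), or 4.46 with the offset of 32. CD14, a co-receptor for bacterial lipopolysaccharide and a known target of the hormone, read 3.22, 3.38, 3.08 and 3.08 in vehicle and 7.88, 7.89, 7.54 and 8.46 with 1,25(OH)2D. No array overlapped and treated replicate 4 was the highest here, with a change of 4.75 (SE 0.19, adjusted p = 0.000204). The vehicle values lay near the bottom of the scale, and with the offset the change was 2.76. The RNA of UCA1, which codes for no protein, rose by 4.50 on the log2 scale (SE 0.31), or 3.69 with the offset. It read 5.91, 5.04, 4.70 and 5.66 in vehicle and 9.46, 10.02, 9.51 and 10.32 with 1,25(OH)2D, with no overlap.

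Of 5 aldo-keto reductases tested, 3 rose. AKR1C1, AKR1C2 and AKR1C3 encode enzymes that reduce steroid hormones and prostaglandins, and their genes lie side by side on chromosome 10. AKR1C2 read 7.68, 7.07, 7.61 and 7.41 in vehicle and 10.56, 11.29, 11.60 and 11.62 with 1,25(OH)2D. AKR1C3 read 3.08, 3.06, 3.09 and 3.04 in vehicle, near the bottom of the scale, and 5.45, 5.67, 6.33 and 6.37 with 1,25(OH)2D. In both genes treated replicate 1 was the lowest of the treated arrays and still lay far above vehicle. The changes were 3.83 for AKR1C2, 3.80 for AKR1C1 (adjusted p = 0.00611) and 2.89 for AKR1C3, the last being 1.23 with the offset.

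The promoters of these 3 genes are shown because the genes moved together and because 2 of them are so alike that their probe sets may read each other's RNA. RefSeq's GRCh38.p14 promoter table held all 3, with the 250 bases upstream of each start given 5′ to 3′ on the gene's own strand: chr10:4963165-4963414 (plus strand) for AKR1C1, chr10:5003858-5004107 (minus strand) for AKR1C2 and chr10:5048531-5048780 (plus strand) for AKR1C3. Capitals mark ATATATAGAGAT, a run of 12 bases that the 3 share. Another run of the same length, attggttaacca, lies nearer the start in all 3 and is not marked. No shared run is longer.
AKR1C1: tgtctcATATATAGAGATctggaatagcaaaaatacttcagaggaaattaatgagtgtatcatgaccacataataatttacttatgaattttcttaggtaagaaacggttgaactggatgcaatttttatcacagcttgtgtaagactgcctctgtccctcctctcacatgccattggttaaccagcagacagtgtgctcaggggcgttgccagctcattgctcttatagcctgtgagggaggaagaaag
AKR1C2: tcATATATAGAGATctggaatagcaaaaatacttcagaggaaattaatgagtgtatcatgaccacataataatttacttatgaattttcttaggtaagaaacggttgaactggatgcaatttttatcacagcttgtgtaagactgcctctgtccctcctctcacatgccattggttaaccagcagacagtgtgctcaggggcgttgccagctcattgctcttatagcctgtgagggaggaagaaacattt
AKR1C3: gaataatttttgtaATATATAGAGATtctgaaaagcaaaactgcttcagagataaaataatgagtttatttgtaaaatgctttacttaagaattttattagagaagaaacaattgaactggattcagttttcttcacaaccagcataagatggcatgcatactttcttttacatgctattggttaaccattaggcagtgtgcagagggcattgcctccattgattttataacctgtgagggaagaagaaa
With a shift of 4 bases, AKR1C1 and AKR1C2 had the same base at 245 of 246 positions (99.6%). Without gaps, at the shift with the most matches, AKR1C1 and AKR1C3 had the same base at 132 of 246 (53.7%). For AKR1C2 and AKR1C3 it was 131 of 242 (54.1%). At these shifts of 4 and 8 bases the marked run of AKR1C3 does not line up with the others. A comparison that allows gaps was not made, so these percentages are not the full likeness of AKR1C3 to the other 2. The marked run of 12 bases, searched on both strands, was in 5 of 27305 RefSeq promoters (0.0183%). That search took each promoter's whole listed sequence and was not cut to 250 bases. The marked run is a description of these letters and names no binding site. The values of AKR1C1 and AKR1C2 may not be independent measurements of each other.

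Of the remaining large rises, PADI3, an enzyme that converts arginine to citrulline in proteins of hair and skin, rose by 3.58 on the log2 scale. CDA, which salvages pyrimidine nucleosides, read 5.28, 4.66, 4.00 and 4.61 in vehicle and 7.27, 8.60, 7.35 and 8.94 with 1,25(OH)2D, a change of 3.40 (SE 0.45, adjusted p = 0.0334) that the offset took to 2.38 and out of the call (adjusted p = 0.0599). CST6, a cysteine protease inhibitor of skin, read 8.76, 7.41, 7.97 and 7.47 in vehicle and 10.51, 11.70, 10.59 and 11.61 with 1,25(OH)2D, 9.20-fold higher by the means (SE of the log2 change 0.40, adjusted p = 0.0281). In CDA and CST6 the treated arrays split into a pair of higher ones, replicates 2 and 4, and a pair of lower ones, and both pairs lay above vehicle. DENND6B, a regulator of membrane traffic, rose by 3.02.

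Among the shared falls, CCL2, the chemokine that attracts monocytes, read 5.57, 5.58, 4.80 and 5.30 in vehicle and 2.53, 2.77, 2.68 and 2.68 with 1,25(OH)2D. The treated arrays lay within a narrow band near the bottom of the scale, and the change was -2.65 (SE 0.18, adjusted p = 0.00222), but -0.91 with the offset. CXCL14, a chemokine made by epithelia, read 12.52, 12.33, 12.20 and 12.23 in vehicle and 9.95, 9.06, 10.08 and 9.64 with 1,25(OH)2D. Every treated array lay more than 2 units below vehicle, and the change was -2.63 (SE 0.22, adjusted p = 0.0046). NTM, a neural cell adhesion molecule, fell by 2.43 on the log2 scale, and by 0.62 with the offset. With the offset CXCL14 had the largest fall of the 10 named here, and CCL2 and NTM fell by less than CCDC80 and IGFBP3.

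The falls that follow lost their call when arrays were centred on their medians. GPC4, a heparan sulfate proteoglycan, read 6.83, 6.82, 6.44 and 6.25 in vehicle and 4.97, 5.31, 5.31 and 4.99 with 1,25(OH)2D, a change of -1.44 (SE 0.17). IGFBP3, which binds insulin-like growth factors, read 10.92, 11.003, 10.70 and 10.51 in vehicle and 9.11, 9.27, 9.78 and 9.60 with 1,25(OH)2D, a change of -1.34 (SE 0.18, adjusted p = 0.0334). APCDD1, an inhibitor of Wnt signalling, read 8.56, 8.75, 8.88 and 8.79 in vehicle and 7.50, 7.44, 7.74 and 7.45 with 1,25(OH)2D, a change of -1.21. In these 3 genes no treated array reached the lowest vehicle array. With centred arrays their adjusted p was 0.0928 for GPC4, 0.217 for IGFBP3 and 0.0533 for APCDD1. Falls called without centring but not with it were also those of CCDC80, a matrix protein (-1.58), RASSF10, a member of the RAS association domain family (-1.33, or -0.66 with the offset), FAM167A (-1.27) and OLFML2A, a matrix protein (-1.16). Of the 13 called falls followed through every setting, 3 were still called with centred arrays (CXCL14, CCL2 and NTM), and of the 22 called rises so followed 15 were. Among the falls DLL1, ABCG1 and SPRY2, described below, also lost their call. The rises that lost it were those of KRT16, CALML3, DUSP10, DKK1, CA12, SERPINE2 and RASSF5.

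**Figure D3:**
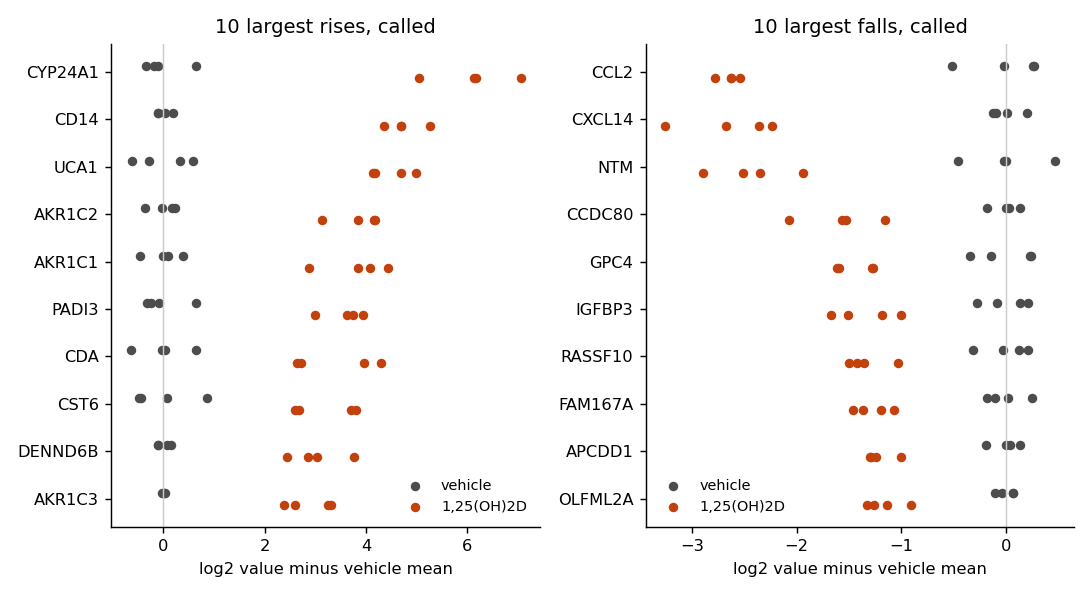
Value of each of the 8 arrays of 24 h minus the vehicle mean (log2) for the 10 largest called rises (left) and the 10 largest called falls (right), vehicle in grey and 1,25(OH)2D in orange. No treated array overlaps a vehicle array in any of the 20 genes, which the rule for choosing them requires.

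The spread-following changes looked different array by array. PTPRG, a receptor tyrosine phosphatase, read 7.47, 8.96, 8.55 and 8.87 in vehicle and 8.24, 6.62, 7.35 and 4.32 with 1,25(OH)2D. Treated replicate 1 lay among the vehicle arrays, vehicle replicate 1 lay among the treated arrays, and replicate 4 lay far below all. The change was -1.83 (SE 0.81, adjusted p = 0.592), and the arrays' position held a share of 0.96 of the within-group sum of squares. LMBRD2, a membrane protein, read 5.36, 7.74, 7.29 and 7.54 in vehicle and 7.70, 4.61, 5.65 and 2.72 with 1,25(OH)2D, a mean difference of -1.81 (SE 1.05). NIPBL, which loads cohesin onto chromatin, read 5.84, 7.84, 7.48 and 7.68 in vehicle and 7.05, 6.01, 6.37 and 2.32 with 1,25(OH)2D. Again vehicle replicate 1 was the lowest of its group and treated replicate 1 the highest of its own, and the groups overlapped. EIF2AK2, a kinase that senses double-stranded RNA, differed by -1.82 (SE 1.09, adjusted p = 0.601), with treated replicate 4 at 4.16 and the other 3 treated arrays between 8.07 and 9.29. KIF18A, a motor protein of the mitotic spindle, differed by -1.92, with treated replicate 4 at 2.87 and treated replicate 1 at 6.77. The lowest mean difference of the class belonged to a probe set annotated to a microRNA locus, MIRLET7D.

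The genes of the class with higher means showed the same order of arrays turned over. KRTDAP, a protein of differentiating keratinocytes, read 5.71, 3.30, 2.89 and 2.99 in vehicle and 4.75, 6.19, 5.16 and 5.85 with 1,25(OH)2D, a mean difference of 1.77 (SE 0.67, adjusted p = 0.518). Vehicle replicate 1 lay above 2 of the treated arrays. TIMP4, an inhibitor of matrix metalloproteases, read 4.92, 3.75, 3.40 and 3.41 in vehicle and 4.92, 5.74, 4.66 and 6.60 with 1,25(OH)2D. KRT13, a keratin of stratified epithelium that is not cornified, read 8.41, 7.21, 7.54 and 7.14 in vehicle and 8.34, 8.86, 8.47 and 9.66 with 1,25(OH)2D. In both genes vehicle replicate 1 lay above the lowest treated array. PRSS3, a trypsin, differed by 1.24. ADAMTSL3, a matrix protein, and NIBAN1 went the other way along the axis: treated replicates 1 and 3 were the highest, at 5.15 and 5.01 for ADAMTSL3 and 7.86 and 7.63 for NIBAN1, and treated replicates 2 and 4 the lowest, at 3.59 and 3.16 for ADAMTSL3 and 6.70 and 6.28 for NIBAN1.

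**Figure D4:**
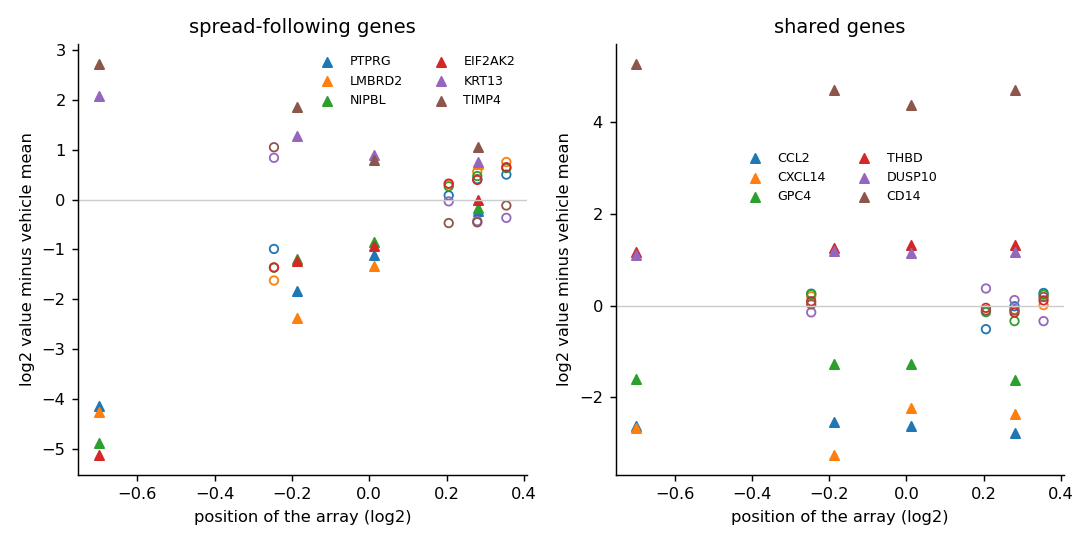
Value of each array minus the vehicle mean (log2) against its position on the spread axis (log2, relative to the mean of the 8 arrays of 24 h) for 6 spread-following genes (left) and 6 shared genes (right); open circles are vehicle, triangles are 1,25(OH)2D. On the left the values follow the position in both groups, but for KRT13 and TIMP4 treated arrays lie above vehicle arrays of like position. On the right the treated arrays stay apart from vehicle, which the shared class requires.

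Genes at the ends of the axis were of several kinds. Besides MIRLET7D, the highest loadings were those of GOLGA8A (5.67), CENPE (4.95), ZNF621 (4.81) and GOLGB1 (4.55), and the lowest were those of MYO1F (-2.67), H4C11 (-2.45), H1-3 (-2.43), DHRS3 (-2.33) and HEXIM2 (-2.32). CENPE is a kinetochore motor and GOLGB1 a large Golgi protein, whereas H4C11 and H1-3 encode histones. CENPE read 2.45, 6.55, 5.74 and 6.38 in vehicle and 6.03, 3.02, 3.55 and 1.83 with 1,25(OH)2D, so that vehicle replicate 1 lay with treated replicates 2, 3 and 4, and treated replicate 1 with the other vehicle arrays. H1-3 read 3.95, 3.27, 3.30 and 3.30 in vehicle and 3.95, 5.02, 4.46 and 5.18 with 1,25(OH)2D, with vehicle replicate 1 level with treated replicate 1. Over the 99.9% of genes with a known length, the loading correlated with log10 gene length at r = 0.388 (Spearman rho = 0.409), as a description across genes. The median gene length was 67.5 kb for the spread-following falls, 14.0 kb for the spread-following rises, 47.1 kb for the shared falls, 18.1 kb for the shared rises and 28.8 kb for all genes. The loading hardly went with the mean level of a gene (r = -0.0541). Whether gene length has a part in the spread was not tested.

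Values of the control probe sets moved with the position in part. The difference between the 3′ and 5′ probe sets of ACTB was 0.67, 0.73, 0.65 and 0.71 in vehicle and 0.73, 0.53, 0.59 and 0.46 with 1,25(OH)2D. Treated replicate 4 had the lowest difference and treated replicate 1 the highest of their group, but vehicle replicate 1 lay among the other vehicle arrays. The group means were 0.692 ± 0.0358 and 0.579 ± 0.114 (SD, n = 4; exact permutation test, p = 0.114). For GAPDH the means were -0.0251 and -0.0470 (exact permutation test, p = 0.314). The mean of the hybridization spikes, RNAs added in fixed amounts before hybridization, was 0.231 higher in the treated arrays, without overlap (exact permutation test, p = 0.0286, the smallest that 4 against 4 can give). Their part in the changes at 24 h was not tested.

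When the position of each array was added to the model as a covariate, which compares the treatments at equal position, limma called 1052 probe sets (4.04%). The medians of the classes moved unequally. The classes were set with the same position in the same arrays, so their contrast here was largely built in. The counts and medians by class are only a description. The position was taken from the same arrays, their treatment difference included. The part of the mean change that goes with the loading is therefore removed by construction (r = -0.721 before, -0.0053 after). Values at equal position, also those of the lists below, are a description and cannot tell treatment from spread. The median change of the shared rises went from 1.33 to 1.12 and that of the shared falls from -1.26 to -1.08. The median of the spread-following rises went from 0.70 to 0.382, and that of the spread-following falls from -0.785 to -0.098. At equal position 112 of 114 shared rises (98.2%) and 78 of 78 shared falls still differed by at least 1.5-fold, against 70 of 471 spread-following rises (14.9%) and 116 of 2627 spread-following falls (4.42%). Of the spread-following falls, 788 (30.0%) turned in sign. PTPRG (-0.77 at equal position), LMBRD2 (-0.43), NIPBL (-0.45), EIF2AK2 (-0.42) and KIF18A (-0.86) kept their sign and were not called at equal position. KRT13 (0.77, adjusted p = 0.0213) and NIBAN1 (1.77, adjusted p = 0.00478) were among the 139 spread-following rises called there. Of the spread-following falls 110 were called there. The share of the within-group sum of squares held by the position was also high among the shared rises, with a median of 62.3%, and lower among the shared falls, with 40.3%. KRT16 shows such a gene: its position share was 0.90, yet its change at equal position was 1.66 (adjusted p = 0.000619) beside 1.94 without the covariate.

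The effects at 48 and 6 h were measured in other arrays. The shared class used them only in the filter on low values, which takes the arrays of all 6 groups. With no filter the share of shared changes called at 48 h was 84.1%. The spread-following class also used their deviations from the group means through the axis. The counts of that class at 6 and 48 h are therefore a description and do not come from unused samples. At 48 h limma called 1043 rises (4.01% of all tested) and 1460 falls (5.61%). Of the 114 shared rises of 24 h, 110 (96.5%) also rose at 48 h, and of the 78 shared falls 68 (87.2%) also fell, so that 178 of 192 (92.7%) were called in the same direction. Of the 471 spread-following rises 177 (37.6%) rose at 48 h, and of the 2627 spread-following falls 412 (15.7%) fell, 589 of 3098 (19.0%) in all. Both shares of the spread-following changes lay below those of the shared changes and above those of all probe sets. At 6 h limma called 496 rises (1.91%) and 204 falls (0.784%). Of the shared rises 61 (53.5%) had risen by 6 h, but of the shared falls only 10 (12.8%) had fallen, and 4 had risen. Of the spread-following changes 53 of 471 rises (11.3%) and 27 of 2627 falls (1.03%) were called at 6 h. Across genes the change at 24 h correlated with that at 48 h at r = 0.962 over the shared genes and r = 0.568 over the spread-following genes, as a description. The 92.7% became 53.4% without treated replicate 1 of 24 h, where the shared classes were larger, and 23.3% without the 3 arrays named above, where they numbered 640 rises and 2171 falls. The 19.0% became 12.8% without that array and 41.3% without treated replicate 4.

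**Figure D5:**
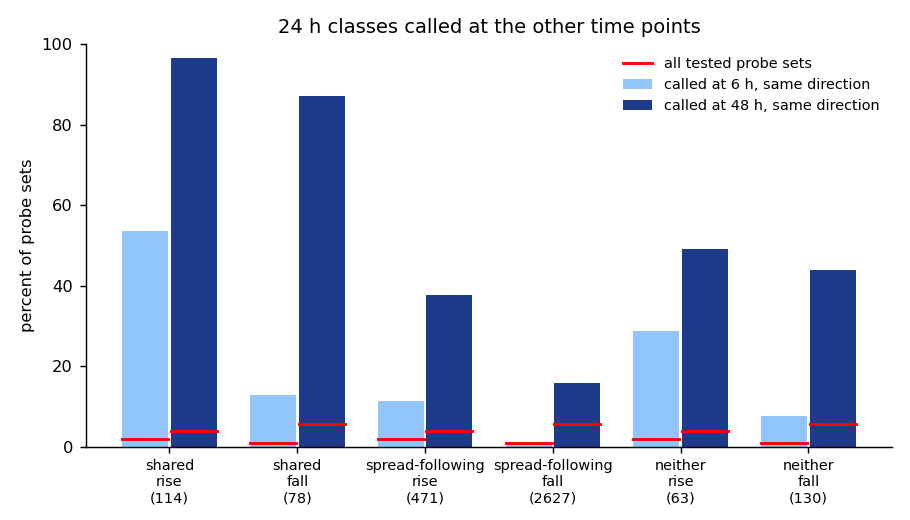
Percent of the probe sets of each 24 h class that limma called in the same direction at 6 h (light blue) and at 48 h (dark blue), with the number of probe sets in brackets; red lines give the percent of all 26036 tested probe sets called in that direction. The shared rises reach 96.5% and the shared falls 87.2% at 48 h.

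Differences between the effects were tested directly in a fit of all 24 arrays. The difference between the 24 h and 48 h effects passed for 9 probe sets (0.0346%). This count was 53 without treated replicate 1 of 24 h, 17 without treated replicate 4 of 24 h and 25 without treated replicate 2 of 48 h, and from 3 to 5 without any 1 of vehicle replicates 2, 3 and 4 or treated replicate 3 of 24 h, vehicle replicates 1, 2 and 4 of 48 h and treated replicates 1, 3 and 4 of 48 h. MX1, an antiviral protein that interferon induces, read 10.47, 9.90, 9.43 and 9.73 in vehicle and 7.94, 8.57, 8.93 and 9.01 with 1,25(OH)2D at 24 h. The groups did not overlap, but its mean difference of -1.27 was not called (adjusted p = 0.221). It fell by 3.85 at 48 h, and the difference between the effects was 2.59 (adjusted p = 0.00038). MFAP5, a microfibril protein, differed by -0.96 at 24 h and fell by 2.46 at 48 h. LBH, a transcriptional regulator, was level at 24 h, with vehicle arrays from 4.44 to 4.66 and treated arrays from 4.57 to 4.74, and rose by 1.82 at 48 h. SCNN1B, a subunit of the epithelial sodium channel, lay between 2.30 and 2.43 in all 8 arrays of 24 h and rose by 1.87 at 48 h. SGPP2, a sphingosine phosphate phosphatase, and GDPD3, a lipid phosphodiesterase, were also among the 9, with 1.27 and 0.79 at 24 h against 3.62 and 3.07 at 48 h.

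The difference between the 24 h and 6 h effects passed for 549 probe sets (2.11%), and for 991 without treated replicate 1. PHACTR3, a regulator of protein phosphatase, fell by 4.07 at 6 h and was back at -0.25 at 24 h. GEM, a small GTPase, rose by 4.26 at 6 h and lay between 2.79 and 2.96 in all 8 arrays of 24 h. ABTB3, which has ankyrin repeats, rose at both times, by 5.65 and 2.27, and RASSF5, a RAS effector, by 3.91 and 0.82. AKR1C3 and DNER, a ligand of Notch, went the other way, at 0.41 and -0.12 at 6 h and with rises of 2.89 and 2.71 at 24 h. IGFBP3 turned in sign: it rose by 1.55 at 6 h, fell by 1.34 at 24 h and fell by 2.58 at 48 h.

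The genes were also followed by function in lists, whose medians are given beside the median of all 12026 genes, 0.0117. Of all genes limma called 0.324% as rises and 0.191% as falls, 5.2% were higher and 4.58% lower at an unadjusted p under 0.05, and SAM, a test for arrays that permutes the sample labels, called 3.82% higher and 3.15% lower. Shared rises were 0.615% of all genes, shared falls 0.424%, spread-following rises 1.97% and spread-following falls 10.7%, and 48.5% had a lower mean. Of 27 tested genes of the vitamin D system and its known targets, 6 rose (22.2%) and 1 fell (3.70%), with a median of 0.145. Besides CYP24A1, CD14 and CST6, THBD rose, the endothelial and epithelial receptor of thrombin. It read 9.20, 9.21, 9.05 and 8.95 in vehicle and 10.41, 10.36, 10.41 and 10.27 with 1,25(OH)2D, a change of 1.26 (SE 0.09). DUSP10, a phosphatase that inactivates stress kinases, read 5.47, 5.28, 5.99 and 5.74 in vehicle and 6.78, 6.81, 6.75 and 6.72 with 1,25(OH)2D, a change of 1.15. In both genes the treated arrays lay close together, and the position held a share of 0.04 for THBD and 0.01 for DUSP10. SERPINB1, an elastase inhibitor, rose by 0.80. CAMP, the antimicrobial peptide cathelicidin and a known target of the receptor, read 2.92, 2.90, 2.89 and 2.93 in vehicle and 3.65, 3.88, 3.61 and 5.60 with 1,25(OH)2D. Its mean difference of 1.27 was not called (adjusted p = 0.456), and treated replicate 4 lay far above the others.

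Of 24 tested genes of squamous differentiation 4 rose (16.7%) and no other was called, with a median of 0.312. KRT16, a keratin of activated keratinocytes, read 10.59, 9.83, 9.86 and 10.06 in vehicle and 11.65, 12.11, 11.88 and 12.46 with 1,25(OH)2D, a change of 1.94. CALML3, a calmodulin-like protein of epithelia, rose by 1.79, and CST6 and CDA belong to the same list. With centred arrays KRT16 and CALML3 lost their calls (limma adjusted p = 0.0536 and 0.0508). CST6 and CDA kept theirs, but CDA lost its call with the offset. KLK5, a protease of the shedding skin surface, read 2.41, 2.41, 2.33 and 2.31 in vehicle and 3.90, 5.81, 4.87 and 5.88 with 1,25(OH)2D, without overlap, and was just outside the call at 2.75 (adjusted p = 0.0583), or 0.90 with the offset. SPRR1B, a precursor of the cornified envelope, differed by 1.49 (adjusted p = 0.134). Of 11 keratins only KRT16 rose. KRT15, a keratin of basal cells, read 12.35, 11.50, 11.51 and 11.85 in vehicle and 10.51, 9.62, 10.17 and 10.81 with 1,25(OH)2D, without overlap and not called (adjusted p = 0.129). Of 19 protease inhibitors 4 rose (CST6, SERPINB1, SERPINE2 and SLPI) and no other was called. SERPINE2, which inhibits thrombin and urokinase, rose by 0.68, and lost its call with centred arrays (limma adjusted p = 0.107). SPINK6, an inhibitor of kallikreins, differed by -1.50 and PI3, an elastase inhibitor, by 1.17, both uncalled.

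In signalling pathways few members were called, but of all genes only 0.324% rose and 0.191% fell. Except in the TGF-beta and BMP list, the shares below lay above these. Of 35 Wnt and Notch genes 2 rose and 2 fell (5.71% each). DKK1, a secreted Wnt inhibitor, read 9.85, 9.99, 9.64 and 9.76 in vehicle and 10.54, 10.90, 11.02 and 10.72 with 1,25(OH)2D, a rise of 0.99, while APCDD1 fell. DNER read 4.48, 4.54, 4.33 and 4.43 in vehicle and 7.49, 7.37, 7.28 and 6.47 with 1,25(OH)2D, a change of 2.71 (1.71 with the offset), and DLL1, a Notch ligand, fell by 1.02. The receptors LRP6 (-1.12) and FZD6 (-1.08) were uncalled and spread-following. Of 11 genes of the insulin-like growth factor axis, IGFBP6 rose by 2.12 and IGFBP3 fell (9.09% each). Of 33 genes of the EGF receptor family and MAP kinase feedback, DUSP10 rose and SPRY2, an inhibitor of receptor tyrosine kinase signalling, fell by 0.70 (3.03% each). Of the called genes of these lists only DNER and IGFBP6 stayed called with centred arrays. The limma adjusted p was then 0.091 for DKK1, 0.071 for DLL1, 0.0536 for DUSP10 and 0.502 for SPRY2. FOS, a subunit of AP-1, differed by 1.36 without a call. Of 27 TGF-beta and BMP genes limma called 0, with 6 lower at an unadjusted p under 0.05 and 4 that SAM called lower. In this list 6 genes were spread-following falls (22.2%), among them BMPR2 (-1.37) and TGFB2 (-0.90). The median of that list went from -0.428 to -0.0623 at equal position. With a median loading of 0.561 such a shift was largely built in.

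Of 29 cytokine and NF-kB genes, PTGES, the prostaglandin E synthase, rose by 2.05 and CCL2 fell. PTGES read 7.11, 6.33, 6.34 and 6.43 in vehicle and 8.32, 8.75, 8.32 and 9.02 with 1,25(OH)2D, without overlap. PTGER4, a receptor for prostaglandin E, differed by -1.11 and IL6ST, the shared receptor subunit of the interleukin 6 family, by -1.24, both uncalled and spread-following. Of 23 genes of angiogenesis and hypoxia, CA12, a carbonic anhydrase, rose by 0.64, and KDR, a receptor for vascular endothelial growth factor, and EDN1, the vasoconstrictor endothelin, were shared falls that missed the call, at -1.41 (adjusted p = 0.0711) and -1.28 (adjusted p = 0.0656). CA2, the cytosolic carbonic anhydrase, was a shared rise without a call (1.37). With centred arrays CA12 lost its call (limma adjusted p = 0.2), while EDN1 (0.0497) and CA2 (0.00676) gained one. With the offset KDR differed by -0.55. Of 19 genes of lipid droplets, efflux and fatty acid use, ABCG1, a cholesterol exporter, fell by 0.90, and its relative ABCA1 differed by -1.88 without a call. ABCG1 lost its call with centred arrays (limma adjusted p = 0.502), and ABCA1 differed by -1.12 with the offset.

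Of 39 genes of the extracellular matrix and integrins 5 fell (FN1, FBN2, CCN1, GPC4 and OLFML2A) and no other was called, 32 had a lower mean with 1,25(OH)2D, and the median was -0.419, or -0.242 at equal position and -0.0322 at 48 h. GPC4 and OLFML2A are described above. The integrin subunit ITGAV (-1.48) and the collagen COL5A2 (-0.96) were uncalled and spread-following.

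Among 42 interferon-stimulated genes limma called 0 at 24 h, although 37 had a lower mean, 19 were lower at an unadjusted p under 0.05, and SAM called 12 lower and 1 higher. At 48 h 38 of the 42 fell, against 6.86% of all genes. The median was -0.628 at 24 h, -0.661 at equal position and -1.27 at 48 h, and 8 members were shared falls (IFI44L, IFIH1, MX1, OAS2, EPSTI1, PARP9, PARP14 and CMPK2). IFI44L read 5.12, 6.36, 5.40 and 6.07 in vehicle and 3.52, 3.11, 4.29 and 2.78 with 1,25(OH)2D, a mean difference of -2.31 (adjusted p = 0.0794), or -0.995 with the offset. PARP9, which works in the antiviral response, differed by -1.61. Another 13 members (31.0%) were spread-following falls, against 10.7% of all genes. At equal position 18 of the 42 fell, against 3.02% of all genes.

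Of 40 mitosis genes limma called 0 and 39 had a lower mean, with 8 lower at an unadjusted p under 0.05 and 8 called lower by SAM. The list held 16 spread-following falls (40.0%, against 10.7% of all genes) and no shared change. NUF2, a kinetochore protein, read 6.77, 8.46, 8.18 and 8.55 in vehicle and 7.92, 6.71, 6.14 and 5.28 with 1,25(OH)2D, with overlap (-1.48, adjusted p = 0.569). The median of the list was -0.449, with -0.28 at equal position, where 11 fell, and -0.247 at 48 h, where 11 fell. By contrast, 43 DNA replication genes had a median of -0.0126, 1 spread-following fall and 0 limma calls, with 2 higher and 1 lower at an unadjusted p under 0.05 and 2 called higher by SAM. Of 24 genes of G1 cyclins, kinases and inhibitors limma called 0, with 1 higher and 3 lower both at an unadjusted p under 0.05 and by SAM. In this list 7 were spread-following falls (29.2%), among them CDK6 (-1.01), and GAS6 was a shared fall without a call (-0.94).

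Limma called 0 members of 9 further lists. NRF2 targets (31 genes, median 0.187) had 6 higher at an unadjusted p under 0.05, and SAM called 5 higher and 1 lower. Sterol and fatty acid synthesis (27 genes, median 0.131) had 9 higher at an unadjusted p under 0.05, and SAM called 6 higher. Of the others, glycolysis and the pentose phosphate pathway had 26 genes and a median of 0.185, mitochondrial electron transport 40 and 0.105, and claudins, cadherins and desmosomes 22 and -0.253. The p53 targets had 21 genes and a median of -0.0589, unfolded protein stress 25 and -0.0905, heat shock 10 and -0.0631, and ribosomal proteins 14 and -0.0123. In each of these 7 lists at most 4 members passed an unadjusted p under 0.05 and SAM called at most 3. Uncalled members with large mean differences were the cystine transporter SLC7A11 (-1.16), the secreted peroxidase GPX3 (1.07) and the sterol reductase TM7SF2 (1.81).

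The cell line's label was held against marker genes. Of 10 basal markers 8 were tested, and KRT5 (15.3) and KRT14 (16.1) were near the top of the scale in all 8 arrays. Of 10 luminal markers 4 also passed the filter and were tested (KRT8, KRT18, KRT19 and KLK3). The levels of 2 basal keratins alone therefore do not settle a basal identity. Of 9 fibroblast and smooth muscle markers 4 were tested, of 5 endothelial markers 2, of 7 leukocyte markers 1, and of the neuroendocrine and erythroid markers 0. Of the 19 markers tested, limma called 0, with 1 higher and 2 lower both at an unadjusted p under 0.05 and by SAM. In such bulk samples fewer cells of a type and less RNA per cell cannot be told apart.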

How the data were processed

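RNA of 24 RWPE1 samples was measured on Affymetrix whole-genome arrays. The authors ran gcRMA over the arrays of all groups at once (its version is not given in the sources used here), so the deposited values are log2 intensities of 54613 probe sets and 62 control probe sets. The MAS5 present calls of the study were not used. Tests covered the 26036 probe sets, controls excluded, that reached 3.2 (log2) in 3 of the 4 arrays of any of the 6 groups. Of these 21917 carry 1 gene symbol, 1088 several and 3031 none. The brightest single-symbol probe set stands for each of 12026 genes.

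Treated and vehicle arrays of 24 h were compared with limma 3.58.1 (lmFit, eBayes; R 4.3.3), calling probe sets at an adjusted p (Benjamini-Hochberg) under 0.05. The 6 and 48 h arrays were fitted likewise, and differences between effects come from a fit of all 24 arrays. The spread axis came from the 16 arrays of 6 and 48 h. Exact permutation tests used all 70 arrangements. Tables and figures used pandas 2.3.3, numpy 2.4.6, scipy 1.17.1 and matplotlib 3.10.9 under Python 3.11.15. The scripts were tested on simulated data. Arrays have no read depth, and their number limits the precision.

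Genes named are the 10 largest called rises and falls without overlap, the 6 largest spread-following changes in each direction, and the 5 highest and lowest loadings. Others are up to 2 called rises, 2 called falls and 2 uncalled members of each list. Up to 5 genes in each direction for differences between times were added. Only some of the genes the study names, the markers and the keratins are named. The other members counted in a list, and the genes at the edge of the shared class, were named after their values were seen. Comparisons, members, lists and alternatives were chosen with earlier results of these data known. Alternatives were other normalizations, filters, offsets and models, SAM (re-implemented with all relabellings), a replicate block, each array left out, and other class limits. Genes without a probe set of their own symbol alone are not reported here.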

Additional observations from a re-analysis of the deposited data

Results flagged for a closer look

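In 14 of 192 groups of 4 arrays, 1 array lay far from the other 3. Chance gives about 1 in 20 for values chosen without regard to the spread. Many of these genes were chosen along the spread axis, where vehicle replicate 1 stands apart, so the number is not read against chance. The value given is the gap to the nearest other array divided by the group's range. In 11 of the 14 the array was vehicle replicate 1 of 24 h: it was highest for KRTDAP (0.857), H1-3 (0.961), HEXIM2 (0.83), PI3 (0.938) and PTGES (0.872), and lowest for EIF2AK2 (0.836), GOLGA8A (0.927), ZNF621 (0.852), PTGER4 (0.894), IL6ST (0.849) and SPRY2 (0.861). Vehicle replicate 4 was highest for SGPP2 (0.954) and lowest for GEM (0.866), where all 4 vehicle values lay near the bottom of the scale, and treated replicate 4 was highest for CAMP (0.865).

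By limma's test of the difference, 32 of the 91 genes followed had unequal effects at 24 and 6 h. The 24 h effect minus the 6 h effect (log2) was above 0 for AKR1C2 (1.57), AKR1C1 (1.61), AKR1C3 (2.48), APCDD1 (1.13), SPRR1B (1.77), DKK1 (0.94), DNER (2.82), CA2 (1.5) and PHACTR3 (3.83). It was below 0 for CYP24A1 (-3.99), CD14 (-3.04), CCL2 (-2.54), CXCL14 (-1.93), NTM (-2.29), IGFBP3 (-2.89), FAM167A (-1.07), OLFML2A (-0.89), THBD (-1.40), DUSP10 (-2.13), KRT15 (-1.69), SPINK6 (-1.61), DLL1 (-1.39), ABCA1 (-4.83), FOS (-3.33), GAS6 (-0.87), P2RY2 (-1.96), MX1 (-1.51), TGFB2 (-2.50), LBH (-0.77), RASSF5 (-3.09), ABTB3 (-3.38) and GEM (-4.19). Several of these are early responses that were smaller at 24 h, such as CYP24A1 and FOS, and others were larger at 24 h, such as DNER.

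Subtracting the 48 h effect from the 24 h effect gave 2.59 for MX1, 1.5 for MFAP5, -1.72 for LBH, -2.28 for GDPD3, -1.88 for SCNN1B and -2.35 for SGPP2. Of the control probe sets, the hybridization spikes were 0.231 higher (log2) in the treated arrays of 24 h.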

How the results depend on the processing

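The number of probe sets called at 24 h depended strongly on how the spread was estimated. It was 92 (62 rises, 30 falls) in the main design and 554 (328, 226) with all 24 arrays in one fit, 1506 (856, 650) by SAM, 8700 (4400, 4300) with array weights, 1052 (472, 580) with the position as a covariate, 9908 (4291, 5617) with the deviation from the group's mean position as a covariate, 49 (37, 12) with arrays centred on their medians and 57 falls with an offset of 32. With 1 array left out it lay between 26 and 109 (21 to 76 rises, 5 to 34 falls), and without 3 arrays it was 5491 (2235, 3256). Under a replicate block, by number, it was 1 (1 rise, 0 falls). The deviations of same-numbered arrays correlated at r = -0.889, -0.167, 0.352 and -0.719 for numbers 1 to 4. Most of the within-group variance at 24 h lay on the leading component, so these r values cannot show whether the numbers pair cultures. The titles do not say it either.

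The shared rises numbered 104 to 311 and the shared falls 71 to 303 with 1 array left out, 640 and 2171 without 3 arrays, 52 and 22 with a limit of 2-fold and 236 and 224 with no limit in each array. An offset of 32 gave 49 shared falls. The spread-following changes numbered 528 to 5127 with 1 array left out, 1449 without 3 arrays, 1587 with the offset and 571 at 2-fold. The share of the shared changes called at 48 h was 53.4% to 92.6% with 1 array left out, 84.1% with no filter, 96.1% with the stricter one, 76.3% with no limit in each array and 23.3% without 3 arrays. For the spread-following changes it was 12.8% to 41.3%, and 12.2%, 21.7%, 16.2% and 14.2% under the same settings in that order, with 22.1% with centred arrays and 30.1% at 2-fold. The difference in position was -0.440 to -0.113 with 1 array left out. The difference from the 48 h effect passed for 3 to 53 probe sets with 1 array left out, 3 with no filter and 24 after a second quantile normalization, and the difference from 6 h for 398 to 991. The cause of these shifts was not tested.

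Of 91 genes followed 4 changed sign under at least 1 setting, none of them called in the main design: DHRS3 (-0.11 in the main design, 0.074 after quantile normalization, 0.059 with centred arrays, -0.22 to 0.15 with 1 array left out and 0.010 without 3 arrays), SCNN1B (0.15 with centred arrays, -0.039 to 0.0028 with 1 array left out), PHACTR3 (-0.25, and 0.10 with the position as a covariate) and ZNF621. ZNF621 was at -1.12 (adjusted p = 0.601), turned to 0.11 with the position as a covariate, and passed as lower with array weights (adjusted p = 0.0256), with the deviation as a covariate (0.00434) and without 3 arrays (0.028). Of the 35 called genes, 35 were still called with the position as a covariate, 18 with centred arrays, 14 to 29 with 1 array left out and 0 under a replicate block. An offset of 32 made the fold change over 1.5 times smaller for 28 of the 91 genes, 10 of them called.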
